A study of Rattus norvegicus with 4 samples.

Results

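A set of 10 calcium signalling genes was examined for N6-methyladenosine (m6A), a methyl mark on adenosines inside mRNA, in the arcuate nucleus (ARC) of the rat hypothalamus. They were 5 calcium/calmodulin-dependent (CaM) kinase genes (Camk2a, Camk2b, Camk2d, Camk2g and Camk4), 3 entries for subunits of the phosphatase calcineurin (Ppp3ca, Ppp3cb and Ppp3r1) and 2 genes of plasma membrane calcium pumps (Atp2b1 and Atp2b2). The genes were chosen by name, with earlier results of these data known, and every m6A peak that the deposited tables assign to those names was taken. They held 29 of 29653 peaks at 3 weeks, 30 of 33056 peaks at 5 weeks and 20 of 12704 peaks in the table that compares the ages. All 10 names had a peak at both ages, and 8 of 10 were in the comparison table, from which Ppp3ca and Ppp3r1 were absent.

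The groups were ARC tissue of female Sprague-Dawley rats with normal development at 3 weeks (21 days, juvenile, libraries named ARC_212) and at 5 weeks (35 days, early puberty, ARC_352). No allele or agent was used, and the comparison asks how m6A differs between these ages. Each age was 1 pool of tissue from 3 rats, with 1 input library and 1 library immunoprecipitated with an m6A antibody (IP), 4 libraries in all. No difference has a replicate check or a test, and age, pool and library cannot be told apart.

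Calcium that enters an active neuron binds calmodulin, which switches on the CaM kinases and calcineurin, enzymes that add and remove phosphate on many of the same proteins. CaMKII, built from the products of Camk2a, Camk2b, Camk2d and Camk2g, acts at synapses, and CaMKIV, the product of Camk4, acts in the nucleus on the transcription factor CREB. Calcineurin moves NFAT transcription factors into the nucleus, and the plasma membrane pumps push calcium back out of the cell. In the ARC, kisspeptin and other neurons that act on gonadotropin-releasing hormone (GnRH) secretion respond through calcium. In the KEGG terms that the deposited tables attach to each gene, 9 of the 10 names were under calcium signalling, 7 under oxytocin signalling, 7 under long-term potentiation and 4, all of them Camk2 genes, under GnRH signalling.

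A peak is a stretch of RNA that is richer in the IP than in the input, and its enrichment is given here as log2 of IP over input. It does not measure the amount of an mRNA, and in whole tissue fewer cells of a type and less RNA per cell cannot be told apart. The tables hold no read counts, so depth and counting error are unknown. Over all peaks the median was 3.17 at 3 weeks against 2.81 at 5 weeks, and it was 2.85 and 2.66 over the peaks of the 10 genes. The genes had a median of 3 peaks at 3 weeks and 2.5 at 5 weeks, against 2 and 2 over all genes with a peak. Of the ARC neuron markers looked up, a peak was listed for 4 of 10 at 3 weeks and for 7 of 10 at 5 weeks, with no peak in Agrp, Kiss1 or Ghrh at either age. The markers of oligodendrocytes (4 of 4), astrocytes (3 of 3) and microglia (3 of 3) had peaks at both ages. Of the markers of neighbouring tissues, 1 of 3 for choroid plexus had a peak at both ages, 0 of 2 for the ventromedial nucleus at 3 weeks and 1 of 2 at 5 weeks, and 0 of 4 pituitary hormone genes at either age. The part of other cells in the differences was not tested.

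The order of the genes by their strongest peak was led by Camk4 at both ages and closed by Ppp3r1. At 3 weeks the strongest peaks had a log2 enrichment of 7.22 in Camk4, 5.40 in Atp2b2, 5.07 in Camk2g, 4.32 in Atp2b1, 4.23 in Ppp3cb, 3.86 in Camk2b, 3.58 in Camk2d, 3.24 in Ppp3ca, 2.42 in Camk2a and 1.30 in Ppp3r1. At 5 weeks they had 6.02 in Camk4, 3.76 in Atp2b1, 3.75 in Camk2g, 3.73 in Atp2b2, 3.42 in Camk2b, 3.40 in Camk2d, 3.05 in Ppp3cb, 3.04 in Ppp3ca, 2.77 in Camk2a and 2.30 in Ppp3r1. The strongest peak was lower at 5 weeks in 8 of the 10 genes, all but Camk2a and Ppp3r1, where it was lower in 72.6% of all 12784 genes with a peak at both ages. With 1 pool per age there is no spread against which neighbours in this order can be told apart. Several were nearly level, such as Atp2b1, Camk2g and Atp2b2 at 5 weeks.

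**Figure D1:**
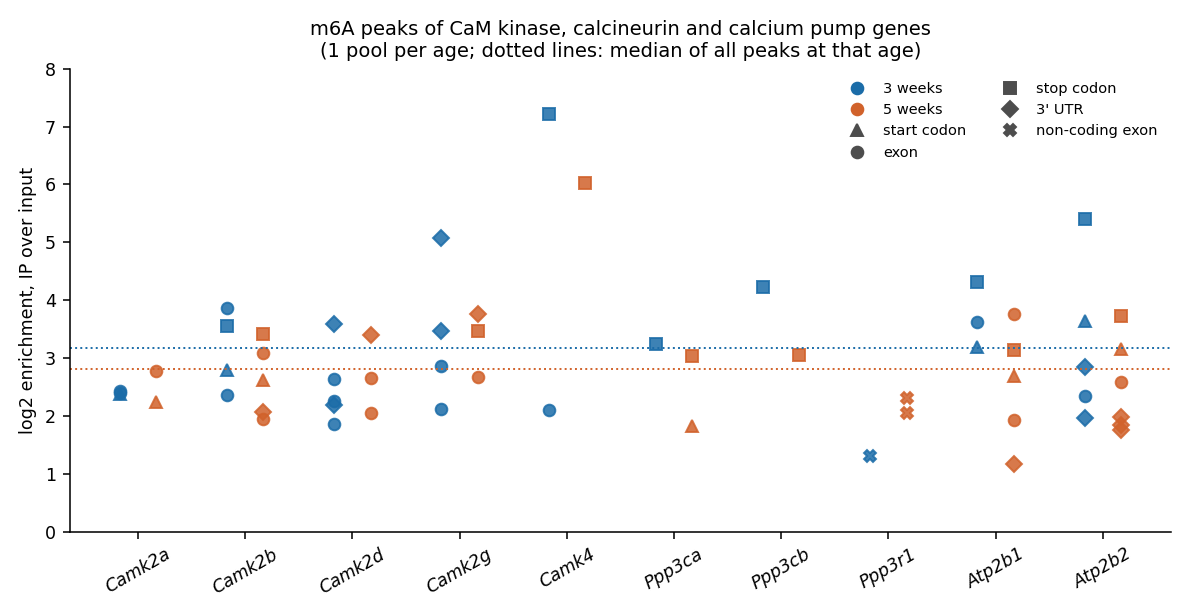
Log2 enrichment of IP over input (vertical axis) of each peak of the 10 genes (horizontal axis) in the separate lists of 3 weeks (blue) and 5 weeks (orange), with the transcript region as the symbol and the median over all peaks of each age as a dotted line. The stop codon peak of Camk4, at 7.22 and 6.02, lies above every other peak at both ages, and all peaks of Camk2a and Ppp3r1 lie below the medians of 3.17 and 2.81.

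Where the peaks lay was largely shared by the ages. Of the 29 peaks at 3 weeks, 28 overlapped a peak of the 5-week list on the same strand by at least 1 base, where 83.1% of all 3-week peaks did. Of the 30 peaks at 5 weeks, 27 overlapped a 3-week peak, where 74.5% of all 5-week peaks did. The peaks found at 1 age only were all below the median of their age, with a log2 enrichment of 2.10 in Camk4 at 3 weeks, and of 1.82 in Ppp3ca, 1.93 in Atp2b1 and 2.30 in Ppp3r1 at 5 weeks. Peaks are drawn on the genome with introns included, and the longest of the group spanned 183498 bases in Camk4.

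Camk4 (ENSRNOG00000020478, chromosome 18, plus strand), the gene of the nuclear kinase CaMKIV, carried the strongest peak of the group. It lay at the stop codon, at chr18:24799094-24802135 in the coordinates of the files. In the 3-week list its log2 enrichment was 7.22, or 149-fold, above 98.4% of all stop codon peaks of that age. In the 5-week list it was 6.02, or 65.0-fold, above 97.7% of them. The peak was therefore lower at 5 weeks and near the top of both lists. The comparison table gives 7.26 and 5.87 for the same region, a difference of -1.39. The only other Camk4 peak was a weak exon peak at 3 weeks, and no 5-week peak overlapped it.

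Camk2g (ENSRNOG00000009783, chromosome 15, plus strand), which encodes the gamma subunit of CaMKII, held peaks that differed in opposite directions between the ages. It was the only one of the 10 genes with both a region at least 2-fold weaker and a region at least 2-fold stronger at 5 weeks, a combination found in 309 of the 2854 genes with 2 or more regions in the comparison table (10.8%). Of the 10 genes, 4 had 2 or more regions there. The weaker peak lay in a 3' UTR at chr15:3561322-3562321, with a log2 enrichment of 5.17 at 3 weeks against 3.70 at 5 weeks, a difference of -1.47. The stronger one was an exon region of 125 bases at chr15:3558742-3558866, with 1.25 and 2.51, a difference of 1.26. No peak of the 3-week list overlapped it, and its 3-week value was low. These regions are annotated to separate transcripts, ENSRNOT00000107544 for the weaker and ENSRNOT00000065644 for the stronger.

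The rest of Camk2g followed the same division along the gene. On transcript ENSRNOT00000065644 the other exon regions had a log2 enrichment of 1.96 at 3 weeks against 2.49 at 5 weeks (difference 0.54), and of 2.84 and 3.64 (0.80). The 3' UTR region of that transcript had 1.37 and 2.20 (0.83), and no peak of the 3-week list overlapped it either. All 4 regions of this transcript in the table were higher at 5 weeks, and both regions of the other transcript were lower, the last with 3.49 and 2.97 (-0.52). In the separate lists that last region cannot be compared directly, since the 5-week list joins both 3' UTR regions into 1 peak of 1625 bases at 3.75 while the 3-week list keeps them apart at 5.07 and 3.47. Likewise a single 5-week peak of 18943 bases at 3.46 covers the exon region that stood alone at 2.86 at 3 weeks, the 125-base exon region and the 3' UTR region next to it.

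**Figure D2:**
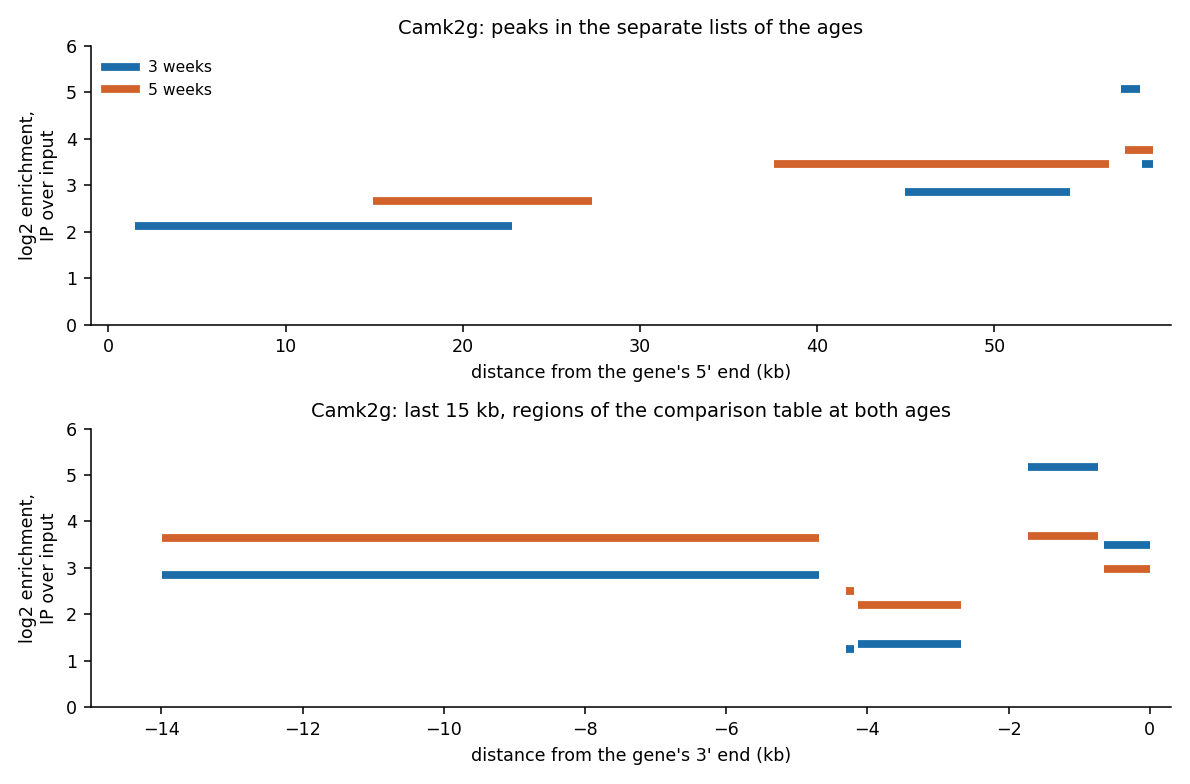
Peaks of Camk2g as bars along the gene (horizontal axis, distance in kb), at the height of their log2 enrichment of IP over input (vertical axis), at 3 weeks (blue) and 5 weeks (orange). The upper panel draws the separate lists over the whole gene and the lower panel the regions of the comparison table in the last 15 kb, where the 5-week bars are above in the 3 regions on the left, such as 2.51 over 1.25, and below in the 2 on the right, such as 3.70 under 5.17.

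None of the regions of the other CaMKII genes reached 2-fold in the comparison table. Camk2a (ENSRNOG00000018712), whose alpha subunit is best known from synaptic plasticity in forebrain neurons, had 3 peaks at 3 weeks, between 2.38 and 2.42 in log2 enrichment. Its 2 peaks at 5 weeks were at 2.24 over the start codon and 2.77 in an exon. Its single region in the comparison table was an exon region with 2.36 at 3 weeks and 2.73 at 5 weeks, a difference of 0.36. No Camk2a peak lay at the stop codon or in the 3' UTR at either age, and Camk2a and the Ppp3r1 entry were the 2 names with no peak there.

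Camk2b (ENSRNOG00000052080), whose beta subunit binds actin filaments, had 4 peaks at 3 weeks and 5 at 5 weeks. The stop codon region had a log2 enrichment of 3.66 at 3 weeks against 3.21 at 5 weeks in the comparison table, a difference of -0.45. The 3' UTR region beside it had 2.81 and 1.86, a difference of -0.95. Both were lower at 5 weeks and under 2-fold in the table. In the lists the 3' UTR region had 3.56 and 2.06, a difference of -1.50 that passes 2-fold, with the 3-week value from a peak that also covers the stop codon. The exon region differed between the sources. The comparison table gave 2.88 and 3.28, a difference of 0.40, for a region of 4757 bases, while the separate lists gave 3.86 for 4551 bases at 3 weeks and 3.09 for 10842 bases at 5 weeks, a difference of -0.77. The direction of this Camk2b exon peak is thus not settled by these files.

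Camk2d (ENSRNOG00000011589), the gene of the delta subunit, which prevails in heart, had 5 peaks at 3 weeks and 3 at 5 weeks. Its strongest peak had the same borders in both lists, 550 bases in the 3' UTR that end 336 bases before the end of the gene. Its log2 enrichment was 3.58 at 3 weeks and 3.40 at 5 weeks in the lists, and 3.65 and 3.27 in the comparison table, a difference of -0.38. The lower count at 5 weeks came with longer peaks. The exon peaks of 4713 and 8589 bases at 3 weeks, at 1.85 and 2.25, both lay inside 1 peak of 44880 bases at 2.06 at 5 weeks.

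The catalytic subunits of calcineurin had a stop codon peak at both ages. Ppp3cb (ENSRNOG00000054782), which encodes the A beta subunit, lay 197 kb from Camk2g on chromosome 15 and had that peak alone. Its log2 enrichment was 4.23 in the 3-week list and 3.05 in the 5-week list, and the comparison table gave 4.26 and 2.95 at chr15:3795558-3804420, a difference of -1.32. The peak was thus at least 2-fold weaker at 5 weeks in both sources. Ppp3ca (ENSRNOG00000009882), which encodes the A alpha subunit, had its stop codon peak at 3.24 at 3 weeks and 3.04 at 5 weeks, a difference of -0.21. This peak and the start codon peak of 1.82, listed at 5 weeks only, are not in the comparison table.

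The name Ppp3r1, used for the gene of the regulatory B subunit of calcineurin, was attached to something else in these tables. The entry (ENSRNOG00000043210) is a long non-coding RNA of 2.79 kb on the minus strand of chromosome 14. RefSeq places Ppp3r1 on the same chromosome as a protein-coding gene of 49.7 kb on the plus strand. For the other 9 names the strand and the protein-coding type matched RefSeq, and all 10 matched by chromosome. These peaks are therefore given under the non-coding entry and not as values of the calcineurin B mRNA, and whether strand was used in counting is not stated. They had a log2 enrichment of 1.30 at 3 weeks, above 0.320% of all peaks, and of 2.04 and 2.30 at 5 weeks.

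The pump genes carried peaks from start codon to 3' UTR. Atp2b2 (ENSRNOG00000030269, chromosome 4, minus strand) encodes a pump found mainly in neurons and in the hair cells of the inner ear. Its stop codon region at chr4:146898307-146909324 had a log2 enrichment of 5.30 at 3 weeks against 3.84 at 5 weeks in the comparison table, a difference of -1.46, and 5.40 and 3.73 in the lists. A 3' UTR region had 2.86 and 1.70, a difference of -1.16 in the table and -0.87 in the lists, and so passed 2-fold in the table alone. A second 3' UTR region had 2.48 and 1.73 in the table (-0.75) and 2.85 and 1.84 in the lists, where it just passed 2-fold and a single 3-week peak covers both of these regions. The start codon region had 3.62 and 2.94 (-0.68). All 4 regions of Atp2b2 in the table were lower at 5 weeks. Its exon peak, which is not in the table, had 2.34 at 3 weeks and 2.58 at 5 weeks in the lists.

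Atp2b1 (ENSRNOG00000004026, chromosome 7, plus strand), the gene of the pump found in nearly all tissues, differed by region. Its stop codon region at chr7:33839108-33842780 had a log2 enrichment of 4.31 at 3 weeks against 3.02 at 5 weeks in the comparison table, a difference of -1.29. The start codon region had 3.21 and 2.56, a difference of -0.65. An exon region of 100 bases had 1.47 and 2.41, a difference of 0.94, and lay in a peak listed at 5 weeks only. The larger exon peak of the gene had 3.62 at 3 weeks and 3.76 at 5 weeks in the lists. A 3' UTR peak of 100 bases at 1.16 was the weakest of the group at 5 weeks.

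Taking the 20 regions of the comparison table, 6 were at least 2-fold weaker at 5 weeks, or 30.0%, where 46.9% of all regions in the table were. These were the stop codon regions of Camk4, Ppp3cb, Atp2b1 and Atp2b2 and a 3' UTR region each of Camk2g and Atp2b2. One, or 5.00%, was at least 2-fold stronger, the short exon region of Camk2g, where 10.6% of all regions were. The other 13 differed by less than 2-fold. The median difference was -0.59 over these 20 regions and -0.95 over the table. The table as a whole leans towards lower values at 5 weeks and holds only regions that passed a p of 0.05 in the comparison itself. After its median was subtracted 0 of the 20 were weaker and 7 stronger, and after subtraction of the median of -0.31 over 22244 peaks paired between the lists 4 were weaker and 4 stronger.

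In the deposited values of the comparison table, the exon regions of the group were higher at 5 weeks and most of the others lower. The table shows 6 of 6 exon regions of the group higher at 5 weeks, in Camk2a, Camk2b, Camk2g (3 regions) and Atp2b1, with a median difference of 0.67. No 3-week peak overlapped the 125-base Camk2g region or the 100-base Atp2b1 region. Their higher values at 5 weeks may thus follow from how they were found. The 125-base region also shares a single 5-week peak with another Camk2g exon region, so these are not separate observations. Of all exon regions in the table, 32.1% were higher, and the median difference was -0.74. In the separate lists, where 9 exon peaks could be paired, 6 were higher at 5 weeks, against 39.9% over all exon pairs, with pairs named by their 3-week label. One of the 6 is a Camk2g pair labelled stop codon at 5 weeks (0.60), and another, in Camk2d, differed by only 0.03. With the exon label required at both ages 5 of 8 were higher, against 38.0% over all. The exon peaks of the group that were lower in the lists were those of Camk2b, at -0.77 and -0.42, and 1 of Camk2d, at -0.19. Of the 6 exon regions in the table, 3 came from Camk2g, and the count without that gene was 3 of 3.

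Most regions of the group labelled start codon, stop codon or 3' UTR were lower at 5 weeks. These labels do not confine a region to an end of the mRNA, since the start codon region of Atp2b2 spanned 176781 bases. In the table, 13 of 14 regions at the start codon, at the stop codon or in the 3' UTR were lower at 5 weeks, where 87.9% of all such regions were, and the exception was the 3' UTR region of Camk2g on transcript ENSRNOT00000065644. Between the lists all 14 pairs of the group with these labels at 3 weeks were lower, where 73.6% of all such pairs were. The Camk2g pair that was labelled exon at 3 weeks and stop codon at 5 weeks is not among them and was higher. Not all of the 14 pairs lay below the median of -0.31 over all pairs. Those above it were the Camk2a start codon (-0.15), the Camk2b stop codon (-0.14) and the Camk2b start codon (-0.19). So were the Camk2d 3' UTR (-0.18), the Ppp3ca stop codon (-0.21) and a 3' UTR pair of Atp2b2 (-0.21). These pairs would be above 0 after subtraction of that median. All 5 stop codon regions in the table were lower, with a median difference of -1.32 against -0.99 over all stop codon regions. Of these 5 regions 4 were at least 2-fold weaker, where 49.4% of all stop codon regions were, and Camk2b was the exception. These directions depend on the scaling. For the regions of the table, the same 7 of 20 were above 0 after subtraction of the median of the pairs. After subtraction of the median of the table itself 14 of 20 were, the 6 exon regions among them. The share lower among regions with these labels was, as deposited, near that over all genes in the table.

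Where both kinds of region were in the table, the same contrast was seen within single genes, taking means over several regions. In Atp2b1 the single exon region, with no 3-week peak over it, differed by 0.94. The stop codon region, the only one at the 3' end of that gene in the table, differed by -1.29. In Camk2g the means over the exon regions and over the 3' UTR regions were 0.87 and -0.39. One of these 3' UTR regions was higher at 5 weeks (0.83), so Camk2g divided by annotated transcript and not by exon and 3' end. In Camk2b the exon region differed by 0.40, and the mean over the stop codon and 3' UTR was -0.70. By these values the exon was above the 3' end in 3 of 3 genes, with the exon higher and the 3' end lower in each. Over all 1106 genes with both kinds the exon value was above in 65.0%, and the exon was higher with the 3' end lower in 25.5%. With only 3 genes, and the Camk2b exon of opposite sign in the lists, these counts are a description of the group.

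**Figure D3:**
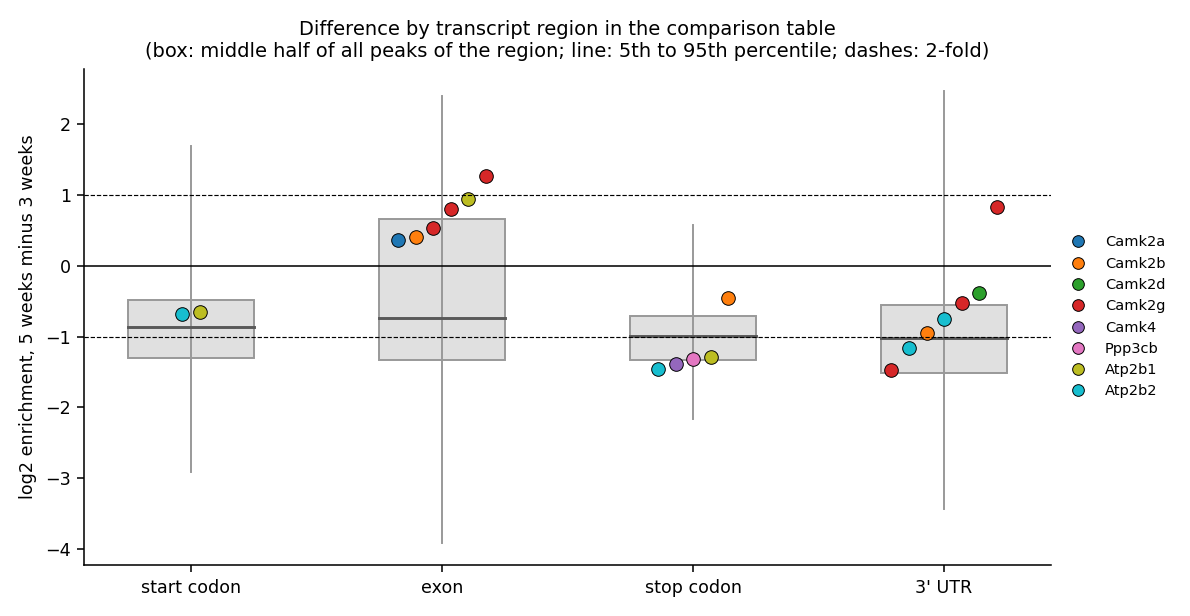
Difference in log2 enrichment, 5 weeks minus 3 weeks (vertical axis), by transcript region (horizontal axis) in the comparison table. Grey boxes hold the middle 50% of all regions of each kind with their median as a line, grey lines reach from the 5th to the 95th percentile, and points are the 20 regions of the group by gene. All 6 exon points lie above 0 and 13 of the 14 others below it in the values as deposited, where centring on the median of the table puts 14 of 20 above 0. The exon regions of 125 bases in Camk2g and 100 bases in Atp2b1 had no 3-week peak over them.

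Other genes of the pathway, 55 in 5 lists, were looked up in the same way. A peak was listed for 45 of them at 3 weeks and for 46 at 5 weeks, and 40 had 71 regions in the comparison table. Of the 71 regions 36.6% were at least 2-fold weaker at 5 weeks and 11.3% at least 2-fold stronger, where the table has 46.9% and 10.6%, and the median difference was -0.83. In the list of calmodulin and its binding partners none of the 9 regions reached 2-fold, and the median difference was -0.16.

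Among other CaM kinases and their regulators 6 of 10 regions were weaker and 2 stronger, where 46.9% and 10.6% of all regions in the table were. Both kinases that activate Camk4 and Camk1 products had a weaker region. Camkk2 had 3.90 at 3 weeks and 2.54 at 5 weeks in its 3' UTR (-1.37), and Camkk1 had 4.02 and 2.69 at its stop codon (-1.32). Camk1d, a CaM kinase I gene, had 4.83 and 3.62 at its stop codon (-1.21). Camk1 had a weaker 5' UTR, at 3.68 and 2.13 (-1.55), and a stronger exon, at 1.39 and 2.93 (1.54). Such a combination was found in 10.8% of genes with 2 or more regions in the table. In Camk2g it fell on separate annotated transcripts. Dapk1, a calmodulin-regulated kinase linked to cell death, had a stronger 3' UTR region, at 1.41 and 2.89 (1.48). Its stop codon region was lower at 5 weeks, at 4.79 and 3.91 (-0.88).

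The list of other calcineurin subunits, regulators and NFAT genes held the most regions stronger at 5 weeks, 4 of 15, with 7 weaker. Over all regions the shares were 10.6% stronger and 46.9% weaker, so the count of weaker regions was near the share over all. The 4 stronger regions were in 3 genes, Rcan3, Rcan2 and Nfat5. Rcan3 and Rcan2 encode regulators that bind calcineurin. The 3' UTR region of Rcan1 had 3.76 and 3.05 (-0.71). Rcan3 had 3.17 at 3 weeks and 4.62 at 5 weeks at its stop codon (1.44), and 1.29 and 2.73 at its start codon (1.44). Rcan2 had 2.29 and 3.51 in an exon (1.22). Nfat5, an NFAT family member that responds to osmotic stress and is not controlled by calcineurin as the others are, had a stronger 3' UTR region, at 2.09 and 3.26 (1.17), another 3' UTR region at 5.18 and 4.80 (-0.38) and a weaker 5' UTR, at 3.69 and 1.65 (-2.04). The calcineurin targets Nfatc3 and Nfatc2 had weaker regions. Nfatc3 had 4.72 and 1.45 in a short exon region (-3.27) and 3.08 and 1.15 in the next (-1.93), and Nfatc2 had 4.52 and 2.75 at its start codon (-1.78).

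Among other calcium pumps and exchangers 6 of 21 regions were at least 2-fold weaker and none stronger, where 46.9% and 10.6% of all regions in the table were. Of the 21 regions 20 were lower at 5 weeks, where 82.0% of all regions in the table were, and 6 lay below the median of the table. The sodium-calcium exchanger genes Slc8a2, with 4.29 at 3 weeks and 1.23 at 5 weeks in its 5' UTR (-3.05), and Slc8a3, with 4.88 and 3.56 at its stop codon (-1.32), were among them. So were the potassium-dependent exchanger genes Slc24a4, with 6.53 and 4.43 in its 3' UTR (-2.11), and Slc24a2, with 5.11 and 3.99 at its start codon (-1.12). Atp2a1, Atp2a3, Atp2c2, Slc8b1 and Pln had no peak at either age.

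In the CREB arm, the transcription factors and coactivators that CaMKIV and calcineurin act on, 7 of 16 regions were weaker and 2 stronger. These counts are near the shares over all regions in the table, 46.9% and 10.6%. Creb1 itself had 6.71 at 3 weeks and 5.13 at 5 weeks in its 3' UTR (-1.58), below the Camk4 peak at both ages. The coactivator Ep300 had 6.36 and 4.77 at its stop codon (-1.59) and a short exon region at 1.41 and 2.49 (1.08). Of the CREB-regulated coactivators, which calcineurin releases into the nucleus, Crtc2 had 4.03 and 2.31 (-1.73) and Crtc3 had 3.25 and 1.78 (-1.48) in their 3' UTRs. Crtc1 had 2.14 and 3.19 at its start codon (1.05), and a stop codon region that was lower, at 4.11 and 3.48 (-0.62). Of the regions named as weaker in these lists, the first exon region of Nfatc3, the 5' UTRs of Nfat5 and Slc8a2 and the 3' UTR of Slc24a4 lay more than 1 log2 unit below the median of the table, and the others did not. Of those named as stronger, the regions of Camk1, Dapk1 and Ep300 and the Rcan3 start codon had low 3-week values, from 1.29 to 1.41. Whether their higher values at 5 weeks follow from how they were found was not tested.

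**Figure D4:**
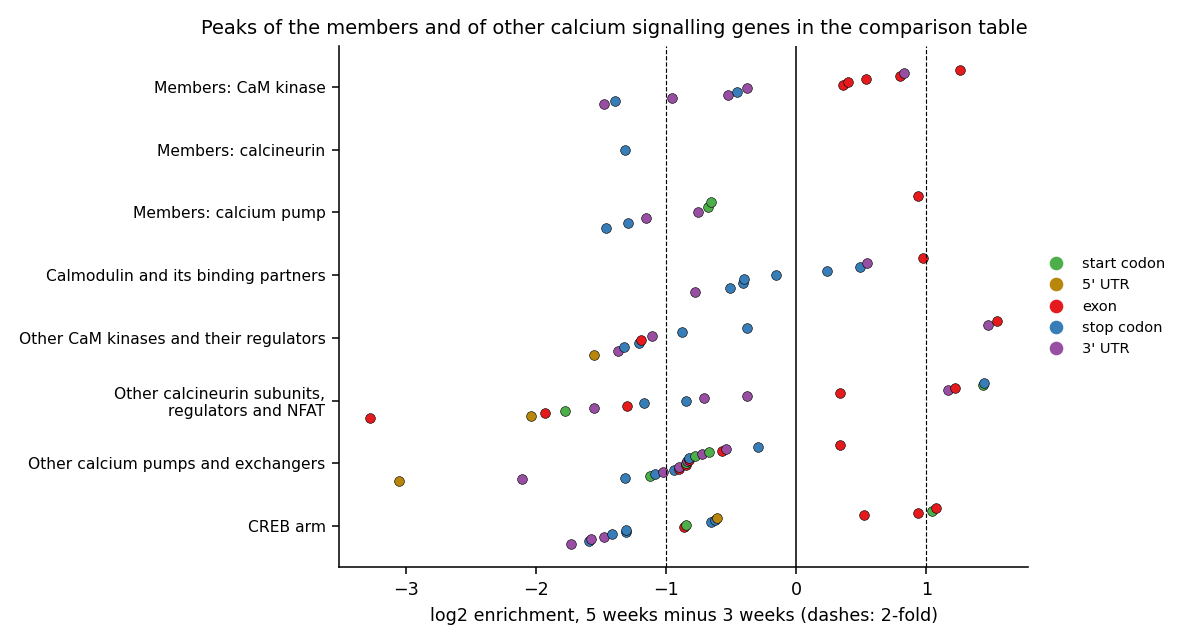
Difference in log2 enrichment, 5 weeks minus 3 weeks (horizontal axis), of every region in the comparison table for the 3 kinds of gene in the group and the 5 lists of other pathway genes (rows), coloured by transcript region, with 2-fold as dashed lines. None of the 9 regions in the calmodulin row reaches 2-fold, and 20 of 21 in the row of other pumps and exchangers lie below 0, as 82.0% of all regions in the table do, with 6 of the 21 below the median of the table.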

How the data were processed

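MeRIP-seq was performed by the authors on 4 libraries, an input and an IP library of 1 pool of ARC tissue at each age. Ages were read from the methods and the library names. HISAT2 2.0.4, an aligner, and fastp 0.19.4, a read trimmer, are listed by the submitters. Their peak caller, scaling and annotation were not given in the sources used here. Although a human build is listed, chromosomes and identifiers are of rat, and coordinates are those of the files, counted from 1, with no build. No peak sequence was read.

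The deposited values are log2 enrichments of IP over input. The authors' adjusted p-value of each peak served only for an alternative. The authors' own columns of the comparison between ages (fold change, p-value, direction) were not used: differences were taken between the deposited log2 enrichments of each age in that table, all rows of which have the authors' p-value under 0.05. Weaker and stronger mean at least 2-fold. Peaks of the lists were overlapped with bedtools 2.31.1 (same strand, at least 1 base) and paired by mutual best overlap. Depth is unknown, and no test was run.

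All 10 genes and up to 4 peaks per list and direction were named. Rcan1, a second Nfat5 3' UTR region and the stop codon regions of Dapk1 and Crtc1 were added after their values were seen. Members and lists were chosen with earlier results of these data known. RefSeq names and strands came from tables of assembly GRCr8. Scripts were tested on simulated data. Alternatives covered thresholds, centring, overlap and the value per gene. Python 3.11.15, numpy 2.4.6, pandas 2.3.3 and matplotlib 3.10.9 were used.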

Additional observations from a re-analysis of the deposited data

How the results depend on the processing

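The counts of 29 and 30 peaks were the same with a log2 enrichment of at least 1 or the caller's adjusted p under 0.01, and 28 overlaps were found with 50% of the shorter peak or on either strand. Counting only the strongest peak per gene raised the median log2 enrichment to 4.04 at 3 weeks and 3.41 at 5 weeks. Without Atp2b2 the medians were 2.83 and 2.68. The 6 weaker and 1 stronger regions became 10 and 4 at 1.5-fold, 0 and 7 after centring on the table median, 4 and 4 after centring on the pairs, and 5 and 0 over the 24 pairs of the separate lists. For the 17 of the 20 regions with list values at both ages the counts were 7 and 0, and the 1 stronger region is not among these 17. The median difference of -0.59 became -0.20 in the lists, -0.36 with the mean per gene and -1.30 with the strongest region per gene. Of 17 regions with values in both lists, 15 kept their sign, and the exceptions were a Camk2b exon and a Camk2g 3' UTR region. Added after seeing the data, the count of exon regions higher at 5 weeks was 3 of 3 without Camk2g. In the lists it was 6 of 9 pairs. No paired analysis was possible because each group holds 1 library. With no counts and no replicates, depth and spread limit every difference.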
